A study of Caenorhabditis elegans with 12 samples.

Results

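The genes described here encode the machinery that brings proteins made in the cytosol into mitochondria. They were listed by name and by role, as receptors and channel of the outer membrane, translocases of the inner membrane and small chaperones of the space between the membranes. Of the 10 genes listed, 9 had a probe set of their own on the array, out of 25478 genes with such a probe set. These are *tomm-20*, *tomm-22*, *tomm-40*, *tomm-7*, *timm-23*, *tin-44*, *tin-9.1*, *tin-10* and *ddp-1*, each measured by 1 probe set. *tin-9.2* shares its probe set with *exos-4.1*, a gene of the RNA exosome, so it has no value of its own and is counted nowhere below.

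RNA was measured in wild-type N2 *Caenorhabditis elegans*, washed off the plates as whole L3 larvae at 20 °C, on 12 Affymetrix arrays in 3 groups of 4 biological replicates. Control larvae were fed bacteria carrying the empty vector pL4440. Mild *nuo-5* RNAi was reached in the parental generation and strong *nuo-5* RNAi in the filial generation, so strength and generation cannot be told apart. The labels do not give the generation of the control larvae, nor which supplement, lutein or DMSO, each array's plates held. The paper describes lutein treatment for a second array comparison, not for this one of control, mild and strong RNAi. The replicates are numbered I, III, IV and V in every group, and the methods state that a further one was left out as very different from the rest.

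Most mitochondrial proteins are encoded in the nucleus and cross the outer membrane through the TOM complex, in which receptors on the surface hand precursors to a pore. In yeast and mammals the TIM23 complex of the inner membrane then takes precursors with a targeting presequence into the matrix, driven by a chaperone motor. Small TIM proteins, with paired cysteine motifs, escort hydrophobic membrane proteins through the intermembrane space. In worms, defective import is tied to the mitochondrial unfolded protein response, because the transcription factor ATFS-1 goes to the nucleus when it is not imported.

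The targeted gene was lower on all 8 arrays of RNAi larvae than in any control. *nuo-5*, which encodes the NDUFS1 subunit of respiratory complex I, had log2 values of 8.29 to 8.56 in control, 7.15 to 7.66 under mild RNAi and 6.89 to 7.22 under strong RNAi. It was called lower in both against control, but the mild call (adjusted p = 0.0471 in limma) was lost without any 1 array. Between strong and mild RNAi *nuo-5* was not called (log2 difference −0.37, adjusted p = 0.118 in limma), and the arrays of these 2 groups overlapped. Arrays of a group correlated at 0.960 or more across all 29317 probe sets. One library stood apart from its group. On strong array III *nuo-5* was at 7.09, within the strong group, yet 8 of the 9 import genes were higher there than on any other strong array. The results that rest on it are therefore given with and without it. The number of arrays limits the precision throughout.

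The genes split under strong RNAi. *timm-23* rose on all 4 strong arrays, while the other 8 genes had lower means than in either other group and lay below their control means on strong arrays I, IV and V. Of these 8 genes 6 lay above their control means on strong III. Under mild RNAi no gene passed the test. Values are log2 values of RMA, a summary of the probes of each probe set after background correction and normalization between arrays, and a difference of 1 is a factor of 2. Group means were compared with limma in a fit over all 12 arrays, and "called" means an adjusted p under 0.05 after Benjamini-Hochberg adjustment over all probe sets. In RNA of whole larvae, fewer cells of a type and less RNA per cell cannot be told apart.

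**Figure D1:**
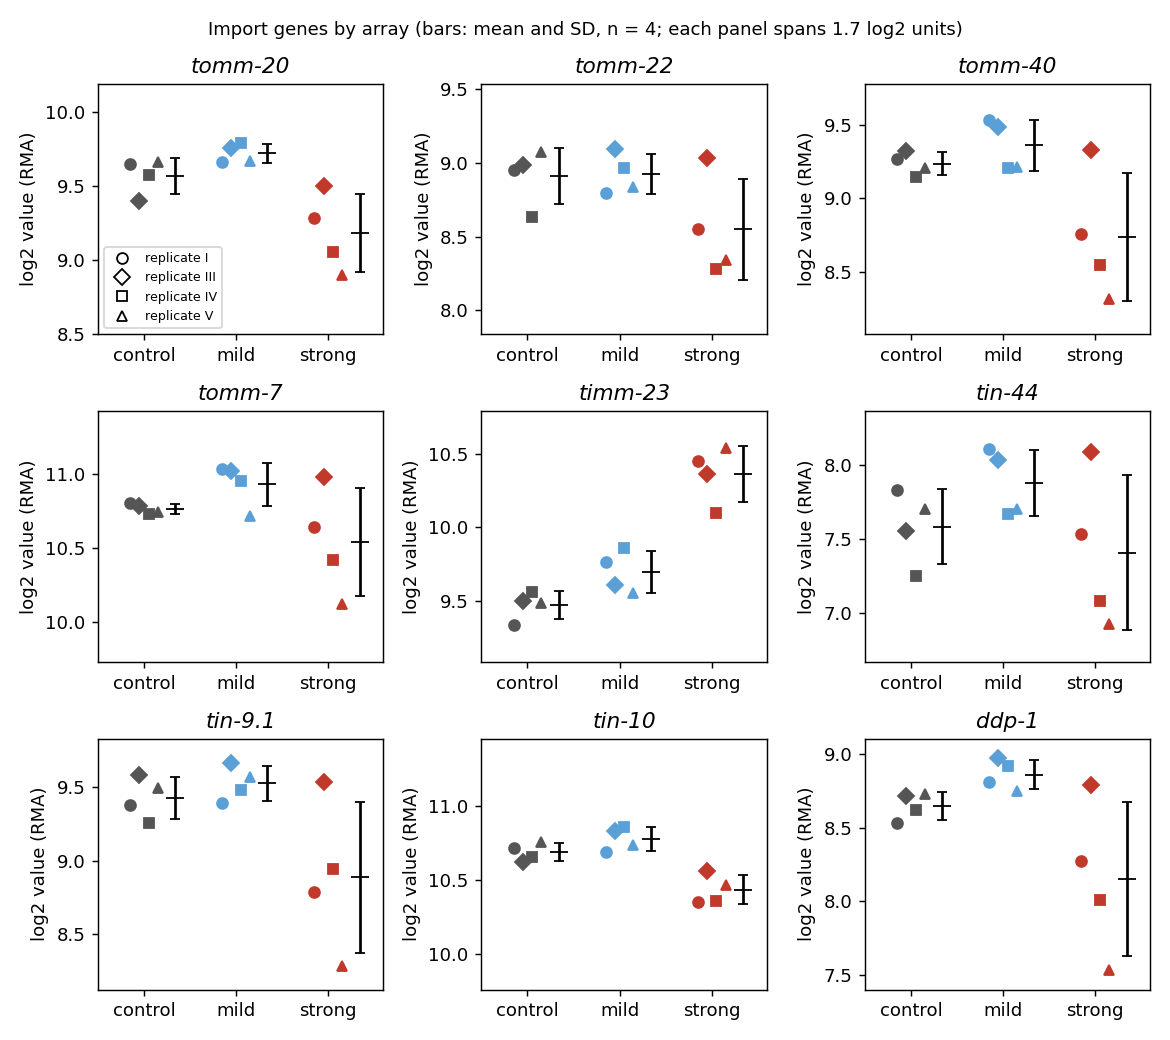
Log2 values of the 9 import genes (vertical axes, each spanning the same number of log2 units) on the 12 arrays, by group. Each symbol is 1 array, its shape gives the replicate number, and the bars are the mean and SD of 4 arrays. *timm-23* is highest on all 4 strong arrays, and the diamond of strong array III lies above the other strong arrays for all of the genes except *timm-23*.

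Among the outer membrane receptors, *tomm-20* encodes the receptor that binds presequences in yeast and mammals. It had log2 values of 9.65, 9.40, 9.57 and 9.66 on control arrays I, III, IV and V, 9.66, 9.76, 9.79 and 9.67 on the mild arrays, and 9.28, 9.50, 9.05 and 8.90 on the strong arrays. Every strong array lay below every mild array, but strong III lay above control III. The mean was 0.54 lower under strong than under mild RNAi (log2 difference, standard error 0.13, n = 4 per group, adjusted p = 0.0250 from limma), or 68.8% of the mild level. This call was lost in 7 of the 21 alternative fits, which are listed with the processing of the data below. Against control the difference was −0.39 (95% confidence interval −0.68 to −0.10, adjusted p = 0.0750), which did not pass.

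*tomm-22* encodes the central receptor of the TOM complex. Its log2 values were 8.95, 8.99, 8.63 and 9.07 on control arrays I, III, IV and V, 8.79, 9.1, 8.97 and 8.83 on the mild arrays, and 8.55, 9.03, 8.28 and 8.34 on the strong arrays. Strong I, IV and V lay below all 8 other arrays of control and mild larvae, and strong III lay among them. The difference between strong RNAi and control was −0.36 (95% confidence interval −0.72 to 0.00, adjusted p = 0.187), and between strong and mild RNAi −0.37 (−0.74 to −0.01, adjusted p = 0.196).

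*tomm-40* encodes the pore through which nearly all precursors pass. It had log2 values of 9.27, 9.32, 9.14 and 9.21 on control arrays I, III, IV and V, 9.53, 9.48, 9.21 and 9.21 on the mild arrays, and 8.76, 9.33, 8.55 and 8.32 on the strong arrays. The pattern was that of *tomm-22*, with strong III at 9.33, above all 4 control arrays. Its level under strong RNAi was 65.1% of that under mild RNAi, a log2 difference of −0.62 (standard error 0.18) with an adjusted p of 0.0525 in limma, just short of the threshold. It passed in 7 of the 21 alternative fits, among them that with the replicate number as a block (adjusted p = 0.0271 in limma). In the fit of only the 8 arrays compared it did not (adjusted p = 0.123). *tomm-7*, which encodes a small subunit that tunes TOM assembly in yeast, had narrow control values of 10.73 to 10.80, mild values of 11.03, 11.02, 10.95 and 10.72, and strong values of 10.64, 10.98, 10.42 and 10.12. Neither of its strong comparisons passed (−0.22 against control, adjusted p = 0.418, and −0.39 against mild RNAi, adjusted p = 0.160).

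Of the inner membrane genes *timm-23* rose and *tin-44* passed no test. *timm-23* encodes the channel-forming subunit of the presequence translocase. Its log2 values were 9.34, 9.50, 9.56 and 9.49 on control arrays I, III, IV and V, 9.77, 9.61, 9.86 and 9.55 on the mild arrays, and 10.45, 10.36, 10.09 and 10.53 on the strong arrays. All 4 strong arrays, III included, lay above all 8 others. *timm-23* was 1.85 times the control level under strong RNAi (log2 difference 0.89, standard error 0.12, 95% confidence interval 0.62 to 1.16, n = 4 per group, adjusted p = 0.00105 from limma). It was also higher under strong than under mild RNAi, by 0.66 (0.39 to 0.93, adjusted p = 0.00772). The mild mean of 9.70 ± 0.14 (SD, n = 4) lay between 9.47 ± 0.10 in control and 10.36 ± 0.19 under strong RNAi. The difference of 0.23 between mild RNAi and control did not pass (−0.04 to 0.49, adjusted p = 1).

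*tin-44* encodes the homologue of TIM44, which in yeast holds the chaperone motor at the inner face of this same channel. Its log2 values were 7.83, 7.56, 7.25 and 7.70 on control arrays I, III, IV and V, 8.11, 8.04, 7.67 and 7.71 on the mild arrays, and 7.54, 8.09, 7.08 and 6.92 on the strong arrays. It varied most among the control arrays (SD 0.25, against 0.10 for *timm-23*), and the strong arrays overlapped both other groups. None of its comparisons passed, with differences of 0.30 between mild RNAi and control, −0.18 between strong RNAi and control (−0.68 to 0.33, adjusted p = 0.678) and −0.47 between strong and mild RNAi (−0.98 to 0.03, adjusted p = 0.241).

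Of the small chaperones of the intermembrane space, *tin-10* had close values on the strong arrays, while *ddp-1* and *tin-9.1* varied widely among them. *tin-10* encodes the partner of TIM9 in the chaperone ring that carries inner membrane proteins. It had log2 values of 10.72, 10.62, 10.66 and 10.76 on control arrays I, III, IV and V, 10.69, 10.83, 10.86 and 10.73 on the mild arrays, and 10.35, 10.56, 10.36 and 10.47 on the strong arrays. All 4 strong arrays lay below all 8 others. The drop was small, to 78.8% of the mild level (log2 difference −0.34, standard error 0.10, adjusted p = 0.0470 from limma). This call was lost in 15 of the 21 alternative fits. Among these were the replicate number as a block (adjusted p = 0.0688) and a further quantile normalization (adjusted p = 0.128). Against control the difference of −0.25 had an adjusted p of 0.116.

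*ddp-1* encodes the homologue of human TIMM8A, the protein affected in deafness-dystonia syndrome. Its log2 values were 8.53, 8.72, 8.62 and 8.73 on control arrays I, III, IV and V, 8.81, 8.97, 8.92 and 8.75 on the mild arrays, and 8.27, 8.79, 8.01 and 7.53 on the strong arrays. The 4 mild arrays lay above the 4 control arrays, and strong III lay above control while strong V was 1.11 below the control mean. Its level under strong RNAi was 61.2% of that under mild RNAi (log2 difference −0.71, standard error 0.21, adjusted p = 0.0482 from limma). This call was lost in 13 of the 21 alternative fits, including every fit without 1 array other than strong III. The difference from control of −0.49 did not pass (adjusted p = 0.139).

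*tin-9.1* encodes a TIM9 homologue. It had log2 values of 9.38, 9.58, 9.26 and 9.49 on control arrays I, III, IV and V, 9.39, 9.66, 9.48 and 9.57 on the mild arrays, and 8.79, 9.53, 8.95 and 8.29 on the strong arrays. Strong III again lay within control while the rest of the strong arrays lay below. Neither the difference from control of −0.54 (standard error 0.21, adjusted p = 0.109) nor that from mild RNAi of −0.64 (adjusted p = 0.0731) passed. The probe set shared by *exos-4.1* and *tin-9.2* averaged 7.96 in control, 8.01 under mild RNAi and 7.56 under strong RNAi, and none of its comparisons passed (adjusted p = 0.0874 for strong RNAi against control and 0.0667 against mild RNAi).

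**Figure D2:**
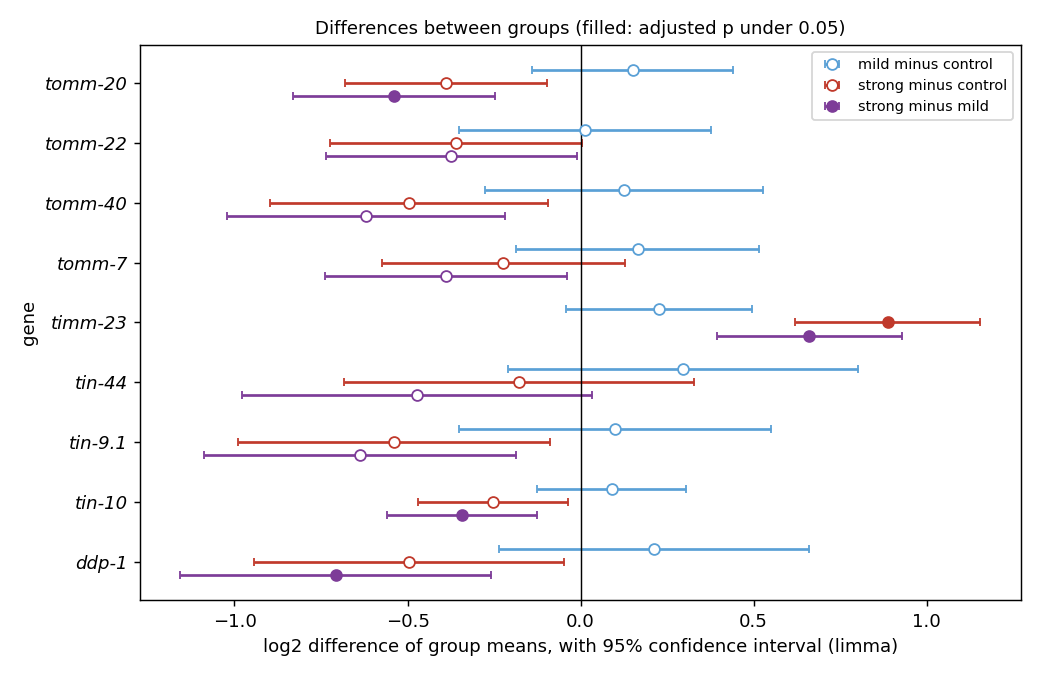
Log2 differences between group means (horizontal axis, with 95% confidence intervals from limma) for the 9 import genes, with n = 4 arrays per group. Filled points had an adjusted p under 0.05. *timm-23* stands to the right of 0 in both strong comparisons, at 0.89 and 0.66, and the other 8 genes stand to the left in both.

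Between mild RNAi and control, 0 of the 9 import genes were called and 0 had an unadjusted p under 0.05 in limma. Of all probe sets 0.0171% were called in either direction. The 9 differences ran from 0.01 for *tomm-22* to 0.30 for *tin-44*, with a median of 0.15 against 0.00 over all probe sets. For 2 of the 9 genes, *ddp-1* and *tomm-20*, all mild arrays lay above all control arrays, where 2.46% of all probe sets did not overlap in either direction. For *tomm-20* the nearest arrays of the groups were equal to 2 decimals, at 9.66. With so few probe sets called, a gene with the median standard error of these 9 would have needed a difference of 1.22 to pass. Smaller changes were not detectable for such a gene. Genes with a smaller standard error would have needed less. In same-numbered pairs, mild was above control in 4 of 4 for 6 of the 9 genes (*tomm-20*, *tomm-40*, *timm-23*, *tin-44*, *tin-9.1* and *ddp-1*), in 3 of 4 for *tomm-7* and in 2 of 4 for *tomm-22* and *tin-10*. Some of these pair differences were very small, such as 0.004 for *tomm-40* and 0.005 for *tin-44* in pair V. The share of all probe sets with such pairs was not computed, so the count cannot be judged against it. The upper ends of the intervals lay between 0.31 for *tin-10* and 0.80 for *tin-44*.

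Between strong RNAi and control, 1 of the 9 genes was called higher, *timm-23*, where 8.04% of all probe sets were called higher. None was called lower, where 5.62% of all probe sets were. An unadjusted p under 0.05 was found for 6 of the 9 genes, beside 27.4% of all probe sets. The median difference of the 9 genes was −0.36, against −0.05 over all probe sets. The arrays did not overlap for 2 of the 9 genes, *timm-23* upward and *tin-10* downward, beside 17.9% of all probe sets. Without strong array III, 5 genes were called lower, namely *tomm-20*, *tomm-22*, *tomm-40*, *tin-9.1* and *ddp-1*, with differences of −0.49, −0.52, −0.69, −0.75 and −0.71 and adjusted p values of 0.0190, 0.0252, 0.00558, 0.00786 and 0.0111 from limma. Calls rose across the array as well in that fit, with 7.28% of all probe sets called lower. Strong III was set apart by the values of these same genes, so the 5 calls are no separate support. Leaving out any other single array gave 0 genes called lower. *timm-23* kept its call without any single array.

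Between strong and mild RNAi, 3 of the 9 genes were called lower, *tomm-20*, *tin-10* and *ddp-1*, where 4.34% of all probe sets were called lower. *timm-23* alone was called higher, where 5.82% of all probe sets were. An unadjusted p under 0.05 was found for 8 of the 9 genes, beside 23.9% of all probe sets. The median difference of the 9 genes was −0.47, against −0.04 over all probe sets, and the arrays of 3 genes did not overlap (*timm-23*, *tomm-20* and *tin-10*), beside 14.1% of all probe sets. The count of lower genes turned on single arrays. Leaving out strong III gave 8, in a fit that called 6.29% of all probe sets lower. Leaving out any of the control arrays, or replicate I of mild or strong RNAi, gave 1, and leaving out any other mild or strong array gave 0. Without strong III, every import gene other than *timm-23* was called, with differences from −0.92 for *ddp-1* to −0.39 for *tin-10*. Since that array was set apart by the values of these same genes, those calls are no separate support. *tomm-20* was the 1 gene that remained in the fits that gave 1. Since mild and strong RNAi share the control arrays, the comparisons with control are not independent of each other.

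Seen array by array, the 8 genes other than *timm-23*, a grouping made after the values were seen, moved together under strong RNAi. Their median difference from the control mean was −0.35 on strong I, −0.51 on strong IV and −0.67 on strong V, and all 8 were below the control mean on each of these arrays. The share of all probe sets below their control means on each array was not computed. Over all probe sets, 42.5% of the differences between strong RNAi and control were positive. On strong III the median was 0.11, with 2 of 8 below the control mean, *tomm-20* (−0.07) and *tin-10* (−0.13). Their median was 0.13, 0.24, 0.13 and 0.07 on the mild arrays, in the same order of replicates as above. Strong III thus lay within the range of the mild arrays in this respect. *timm-23* did not share this pattern. Its strong values were 0.97, 0.89, 0.62 and 1.06 above its control mean.

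**Figure D3:**
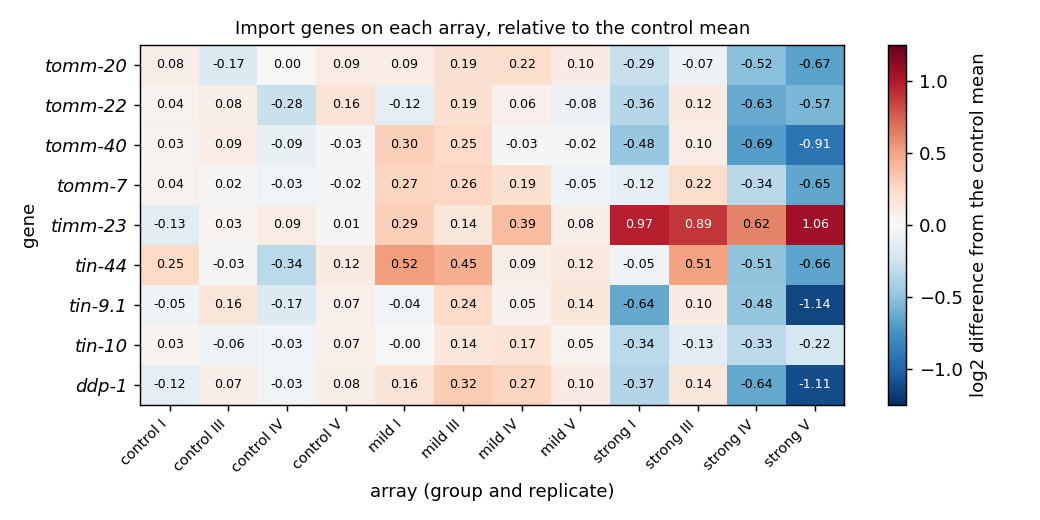
Log2 difference of each import gene from its own control mean (colour and printed value) on each of the 12 arrays. The row of *timm-23* is raised by 0.62 to 1.06 on all strong arrays, while the other rows are lowered on strong I, IV and V and run from −0.13 to 0.51 on strong III.

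The 8 genes also varied in the size of these differences, which was not tested. On strong V, the lowest array for most of them, *tin-9.1* and *ddp-1* were 1.14 and 1.11 below their control means and *tomm-40* was 0.91 below, whereas *tin-10* was only 0.22 below. The SD over the strong arrays was 0.10 for *tin-10* and 0.51 to 0.52 for *tin-9.1*, *tin-44* and *ddp-1*, against SDs of 0.04 to 0.25 over the control arrays for all 9 genes. Every value of these genes was at least 6.92, well above 3.01, the 40th percentile of all values, so none of these differences rests on dim signals.

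Muscle, epidermis, oocyte and vitellogenin markers also set strong I, IV and V apart from strong III. The neuron, germline, intestine and sperm markers did not. Of 17 body muscle genes, 0 were called higher and 11 lower between strong RNAi and control, with a median difference from the control mean of −0.45, −0.82 and −1.20 on strong I, IV and V, against −0.23 on strong III. Their mean log2 level was 9.69 to 9.88 in control, 9.65 to 9.82 under mild RNAi and 8.62 to 9.51 under strong RNAi. Of 8 epidermis genes 2 were called lower, with mean levels of 7.95 to 8.64, 7.70 to 8.40 and 6.80 to 7.93 in the same order. Of 17 measured oocyte and eggshell genes 6 were called higher, with medians of 1.80, 1.48 and 1.75 on strong I, IV and V and −0.66 on strong III. Their mean level was 4.95 to 5.41 in control, 5.03 to 5.31 under mild RNAi, 4.80 on strong III and 7.06 to 7.36 on the other strong arrays. Of 5 measured vitellogenin genes, which encode yolk proteins of adults, 3 were called higher, with a mean level of 3.05 to 3.59 in control, 3.01 to 3.43 under mild RNAi, 3.61 on strong III and 6.31 to 9.63 on the other strong arrays. The larvae were labelled L3 in every group. Of 8 neuron genes 2 were called higher and 0 lower, with medians of 0.03, 0.32, 0.49 and 0.91 on the strong arrays, with III second. In the same order 14 germline genes, with 4 called lower and 0 higher, had medians of 0.10, −1.06, −0.40 and −0.61. Of 7 intestine genes 2 were called higher and 0 lower (0.45, 0.32, 0.41 and 0.17), and of 6 measured sperm genes 0 were called (1.47, −0.47, 0.50 and −0.23). For these counts, 8.04% of all probe sets were called higher and 5.62% lower between strong RNAi and control. The part of tissue make-up and stage in the import gene values was not tested.

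**Figure D4:**
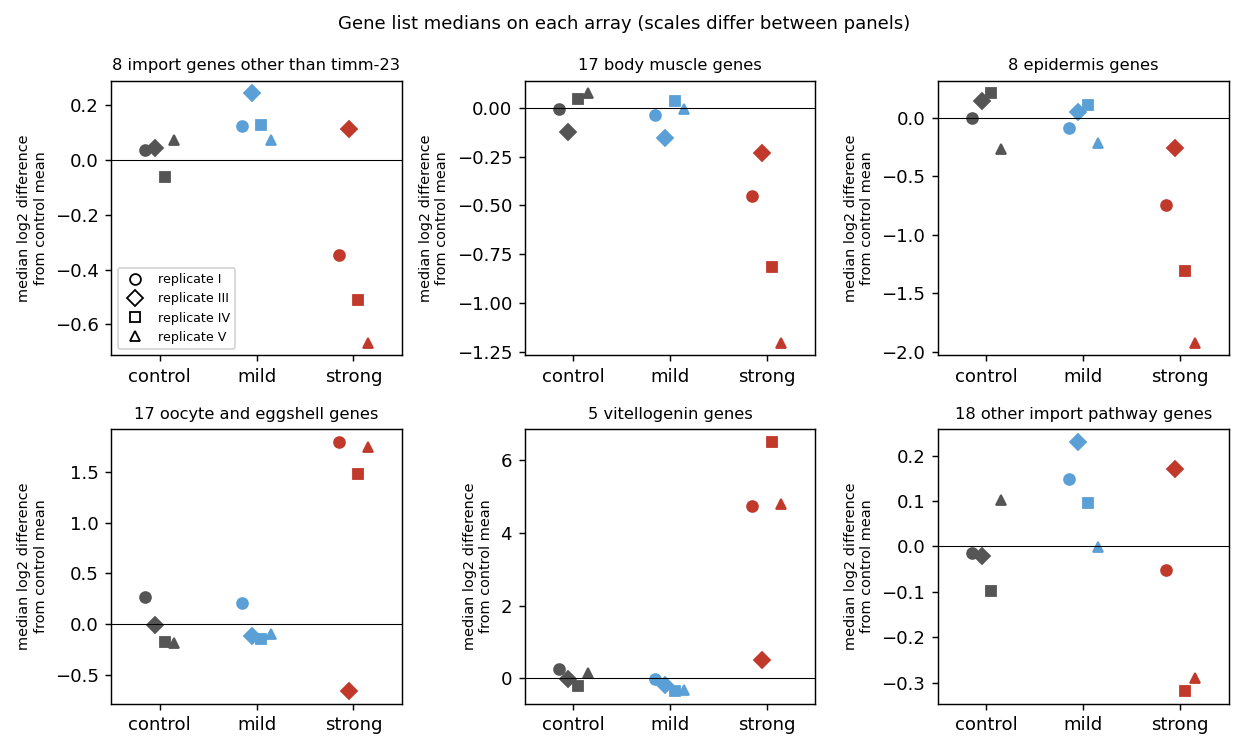
Median log2 difference from the control mean (vertical axes, which differ in scale) of 6 gene lists on the 12 arrays, with 1 symbol per array and its shape for the replicate. On strong I, IV and V the 8 import genes other than *timm-23* and the muscle and epidermis genes are low and the oocyte and vitellogenin genes high, and on strong III the import genes are at 0.11.

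Of 40 other gene names listed for the pathway, 18 had a probe set of their own, and the rest have no value here. Between mild RNAi and control 0 were called, with a median difference of 0.12. Between strong RNAi and control 2 were called lower and 0 higher (median −0.13), and the same 2 were called lower between strong and mild RNAi (median −0.25). They are *oxa-1*, which encodes the insertase of the inner membrane, and *hsp-60*, which encodes the matrix chaperonin that folds imported proteins. Of all probe sets 5.62% were called lower and 8.04% higher between strong RNAi and control. Between strong and mild RNAi 4.34% were called lower and 5.82% higher. *oxa-1* had log2 values of 6.91 to 7.26 in control, 6.95 to 7.16 under mild RNAi, and on the strong arrays 6.50, 6.88, 5.79 and 5.45. Its difference from control was −0.91 (standard error 0.25, adjusted p = 0.0303 from limma). *hsp-60* had 11.050 to 11.157 in control, 11.001 to 11.302 under mild RNAi and 10.627, 11.004, 10.565 and 10.244 on the strong arrays, a difference from control of −0.49 (standard error 0.15, adjusted p = 0.0440). Strong III was again the highest of the strong arrays for both. Against control, the call of *oxa-1* was lost without any 1 control array or strong IV or V, and that of *hsp-60* without any 1 array other than strong III. Against mild RNAi, that of *oxa-1* was lost without any 1 array other than strong I or III, and that of *hsp-60* without any 1 other than control IV or strong III.

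Genes that work beside *timm-23* at the inner membrane did not pass. *timm-17B.1* and *timm-17B.2*, which encode TIM17 subunits of the same translocase, had differences of 0.28 (adjusted p = 0.330) and −0.16 (adjusted p = 0.701) between strong RNAi and control. *scpl-4*, the homologue of the TIM50 receptor, had 0.36 (adjusted p = 0.120), and *dnj-21*, a J protein of the import motor, −0.20 (adjusted p = 0.454). *hsp-6*, which encodes the mitochondrial HSP70 of the motor, had 0.30 (standard error 0.12, adjusted p = 0.131). At the outer membrane the receptor gene *tomm-70* had −0.22 against control (adjusted p = 0.478) and −0.51 against mild RNAi (adjusted p = 0.0940), while *gop-3*, the homologue of the SAM50 insertase, had 0.00 and 0.03. *tin-13*, the partner of *ddp-1* in yeast and mammals, had −0.34 and −0.48 (adjusted p = 0.203 and 0.0875). In the matrix *mppa-1*, the other subunit of the presequence peptidase beside *mppb-1*, had −0.63 against control (standard error 0.27, adjusted p = 0.151).

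Outside the list, the genes whose values followed the mean of the 9 import genes most closely over the 12 arrays were *cri-3* (Pearson r = 0.978), *tufm-2* (0.973), *spg-7* (0.972), *mppb-1* (0.967) and *cox-17* (0.965), out of 15340 genes with a mean above 3.01. The arrays share their 3 groups, and the differences between groups and strong III enter every such value. *spg-7*, a mitochondrial AAA protease, had 7.75, 8.28, 7.29 and 7.31 on the strong arrays and 7.94 to 8.19 in control. *mppb-1*, a subunit of the peptidase that removes presequences from imported proteins, had 6.01, 6.46, 5.79 and 5.72 on the strong arrays and 6.07 to 6.26 in control. Only *spg-7* was called, in strong against mild RNAi (−0.72, standard error 0.20, adjusted p = 0.0435 from limma), and this call was lost without any 1 array other than strong III.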

How the data were processed

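The authors hybridized RNA to Affymetrix *C. elegans* Gene ST arrays (versions differ between labels and methods) and deposited log2 values from RMA, which corrects background, normalizes arrays by quantiles and summarizes each probe set. This was done in oligo, according to the methods. The table holds 29317 probe sets on 12 arrays and was used as deposited. Platform annotation gave 25546 probe sets exactly 1 symbol. The brightest per gene was used.

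Members and gene lists were chosen with earlier results of these data known. The text names all members, other pathway genes called in any comparison, further ones by role picked after their values were seen, and the 5 genes with the highest r to the members' mean.

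Groups were compared in R 4.3.3 with limma 3.58.1 (3 group means, lmFit, contrasts, eBayes, prior degrees of freedom 3.51, residual 9). P values were adjusted by Benjamini-Hochberg over all probe sets at 0.05. The fit was tested on simulated data. For the figures, matplotlib 3.10.9 and pandas 2.3.3 were used.

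Mild and control arrays of 1 number deviated together (r of their deviations 0.34, 0.25, 0.27 and 0.20). Arrays of different numbers were not compared in this way, so pairing by number was not shown. The main fit used no pairs. The numbers served only for the count of same-numbered pairs and for the replicate block. Strong arrays reached 0.00 to 0.31 with control and 0.04 to 0.23 with mild. Alternatives were a replicate block, fits of 8 arrays, further normalization, filters, trend and weights in limma, and leaving out each array. The gene table used for neighbours (WBcel235) gives no strand, and protein and promoter sequences were not used here.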

Additional observations from a re-analysis of the deposited data

How the results depend on the processing

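*timm-23* was called higher between strong RNAi and control under all 21 alternatives (adjusted p 0.000463 to 0.0226 in limma). Between strong and mild RNAi its call was lost only with a replicate block in the fit of the 8 arrays compared, an alternative chosen after seeing the data (count 0, adjusted p = 0.0700). The genes called lower between strong and mild RNAi numbered 0 in the fit of 8 arrays, with or without the replicate block, 7 with array weights and 0 to 8 without single arrays. They numbered 3 with the replicate block over 12 arrays, which ended the call of *tin-10* (adjusted p = 0.0688) and added *tomm-40* (0.0271), and 4 without dim probe sets. Calls moved across the array too. Of all probe sets 2.01% were called lower in the fit of 8 arrays without the block, and 6.69% with array weights. Between strong RNAi and control, genes called lower numbered 6 with array weights, in a fit that called 8.94% of all probe sets lower, and 0 to 5 without single arrays. The weights of strong I, III, IV and V were 0.651, 0.598, 2.318 and 0.724. The strong mean in that fit thus leaned mostly on strong IV, where all 8 genes other than *timm-23* were low. Without single arrays the higher genes numbered 1 in both strong comparisons. Between mild RNAi and control, 0 genes were called under every alternative, the replicate block included. There *tomm-22* changed sign with array weights (−0.008) and without control IV (−0.08), mild III (−0.045) or mild IV (−0.002), with 0.066 as the highest value without single arrays. The other 8 genes kept their sign. Each gene had 1 probe set, so averaging probe sets gave no other value. The 4 arrays per group limit the precision, and signal over background does not.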

Other observations

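Of 15 genes tied to the mitochondrial unfolded protein response, a list that contains *timm-23* itself and shares *hsp-6*, *hsp-60*, *dnj-10* and *timm-17B.1* with the import pathway, 2 were called higher and 1 lower between strong RNAi and control. The higher ones were *timm-23* and *atfs-1*, which encodes the transcription factor of this response, and the lower one was *hsp-60*. Of all probe sets 8.04% were called higher and 5.62% lower in that comparison. *atfs-1* had log2 values of 8.80 to 8.92 in control, 8.80 to 9.09 under mild RNAi, and for strong RNAi 9.46, 9.09, 9.41 and 9.94 (replicates I, III, IV, V). Its difference from control was 0.63 (standard error 0.16, adjusted p = 0.0189 from limma), and the call held in 20 of 21 alternatives, every fit without a single array included. It was lost with a replicate block in the fit of the 8 arrays compared (adjusted p = 0.0761). Its call between strong and mild RNAi (0.54, adjusted p = 0.0491) was lost in 16 of 21. On strong III *atfs-1* was above every control array. This was not particular to it, since *timm-23*, *hsp-6*, *timm-17B.1* and further genes of the list were as well. So were the import genes *tomm-7*, *tomm-40*, *tin-44* and *ddp-1*, whereas *hsp-60* and *ubl-5* of the list were not. *ymel-1*, an inner membrane protease gene, had 0.50 with an adjusted p of 0.0502. Between mild RNAi and control 0 of the 15 were called, with a median of 0.20.

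Within 500 bases of 7 of the 9 import genes, the reference gene table places 12 protein-coding neighbours, whose strand was not known here. Between strong and mild RNAi 0 of the 12 were called. Between strong RNAi and control 2 were called higher, *chn-1* beside *tin-44* (0.81, adjusted p = 0.0151) and Y66D12A.21 beside *tin-10* (0.42, adjusted p = 0.0482 from limma, lost without most single arrays). Of all probe sets 8.04% were called higher in that comparison. *pals-1* beside *timm-23* had −0.19 (adjusted p = 0.502). C18E9.5 and T09B4.3 overlap *tomm-40* and *tin-44* in that table, and had 0.35 and −0.04, and whether probes of 1 gene detect the other was not tested.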
